A study of Saccharomyces cerevisiae with 7 samples.

Results

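The genes described here build the actin cytoskeleton and set the polarity of the budding yeast Saccharomyces cerevisiae. They were chosen by symbol, as a list of 38 genes for actin and its turnover, the Arp2/3 complex, filament-binding and capping proteins, formins, myosins, the endocytic patch and polarity. Of these, 34 had a probe of that name and 33 were among the 5879 features tested. BNI1, MYO5, PAN1 and TWF1 were not analysed here. Whole-genome arrays compared the mRNA of arp6Δ cells (4 arrays) and of swr1Δ cells (3 arrays) with that of wild-type cells. All strains were W303, grown exponentially in rich glucose medium (YPD) to an optical density of 1 at 25 °C according to the sample labels, whereas the study's methods name a higher temperature. Each array set the Cy5 signal of a mutant against the Cy3 signal of wild type, so every value below is a log2 ratio, positive where the mutant was higher. No source used here says whether each deletion strain was a single isolate.

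Actin monomers polymerise into 2 structures in budding yeast, where the cortical patches drive endocytosis and the cables carry secretory vesicles into the bud. The Arp2/3 complex branches filaments in the patches, formins and tropomyosin build the cables, and type V myosins walk along them. The small GTPase Cdc42 marks the site at which a bud forms. Arp6 is an actin-related protein of the nucleus, a subunit of the SWR1 chromatin remodelling complex, whose ATPase is Swr1 and which places the histone variant H2A.Z. Arp6 is thus related to actin by sequence and is not a part of the cytoskeleton.

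The deleted genes were lower in their own mutants. ARP6 read -1.28, -1.27, -1.19 and -0.63 in arp6Δ (mean -1.09, adjusted p = 0.044), with -0.91 on replicates 3 and 4 alone (adjusted p = 0.0027). SWR1 read -0.42, -1.02 and -1.01 in swr1Δ (mean -0.82, adjusted p = 0.0227). Here and below, the adjusted p comes from limma with Benjamini-Hochberg adjustment over all 5879 features. The medians of the arrays lay between -0.006 and 0.002. Values beyond 2-fold made up 15.8% to 40.2% of an arp6Δ array and 1.43% to 5.51% of a swr1Δ array. The arp6Δ arrays formed 2 pairs: across features, replicate 1 correlated with replicate 2 at r = 0.668 and replicate 3 with replicate 4 at r = 0.837, but between the pairs r was 0.255 to 0.367. In swr1Δ, r was 0.811 between replicates 2 and 3, and 0.494 and 0.445 between replicate 1 and each of them. In some stretches of the table a value of arp6Δ replicate 1 or 2, and in places of all 4 arp6Δ arrays, may belong to a neighbouring gene. Results of replicates 3 and 4 alone are therefore given for the genes shown array by array and wherever they change a call, and these too may be displaced in places. How far this accounts for the split was not tested. Stress and ribosomal protein genes were listed with earlier results of these data known, so their direction in arp6Δ is not a test. At an adjusted p of 0.05, 15 of 19 stress genes were lower (median -2.02), against 3.27% of all features. Of 24 ribosomal protein genes, 9 were higher (median 1.32), against 2.09% of all features. How far these changes enter the values below was not tested.

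The cytoskeleton genes did not all move in 1 direction. In arp6Δ, 1 of 33 genes (3.03%) passed the threshold of an adjusted p of 0.05, against 5.36% of all features, and in swr1Δ 9 of 33 (27.3%) passed, against 22.2% of all features. In arp6Δ 10 of the 33 means lay above 0 and 23 below, against 2855 and 3024 over all features. In swr1Δ 18 lay above 0 and 15 below, against 2954 and 2925. Whether the lean below 0 in arp6Δ exceeds that of all features was not tested. The median log2 ratio of the 33 genes was -0.18 in arp6Δ and 0.13 in swr1Δ, against -0.02 and 0.00 over all features. Without regard to sign, the median was 0.299 in arp6Δ and 0.27 in swr1Δ, against 0.439 and 0.255 over all features. The 9 genes in swr1Δ were PFY1, ARC18, CAP2, VRP1, SLA1 and AXL2, which were higher, and TPM1, TPM2 and END3, which were lower. The 1 gene in arp6Δ was AXL2, which was higher. Of all features, 2.09% were called higher and 3.27% lower in arp6Δ, and 11.2% higher and 10.9% lower in swr1Δ. At an unadjusted p under 0.05, 8 of the 33 genes stood out in arp6Δ and 14 in swr1Δ, against 29.4% and 41.6% of all features (limma). With replicates 3 and 4 alone, 12 of 33 genes (36.4%) passed in arp6Δ, 3 higher and 9 lower, against 43.4% of all features in the same fit. None of these shares of genes called is far from that of all features, so the counts of calls do not set the genes apart.

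**Figure D1:**
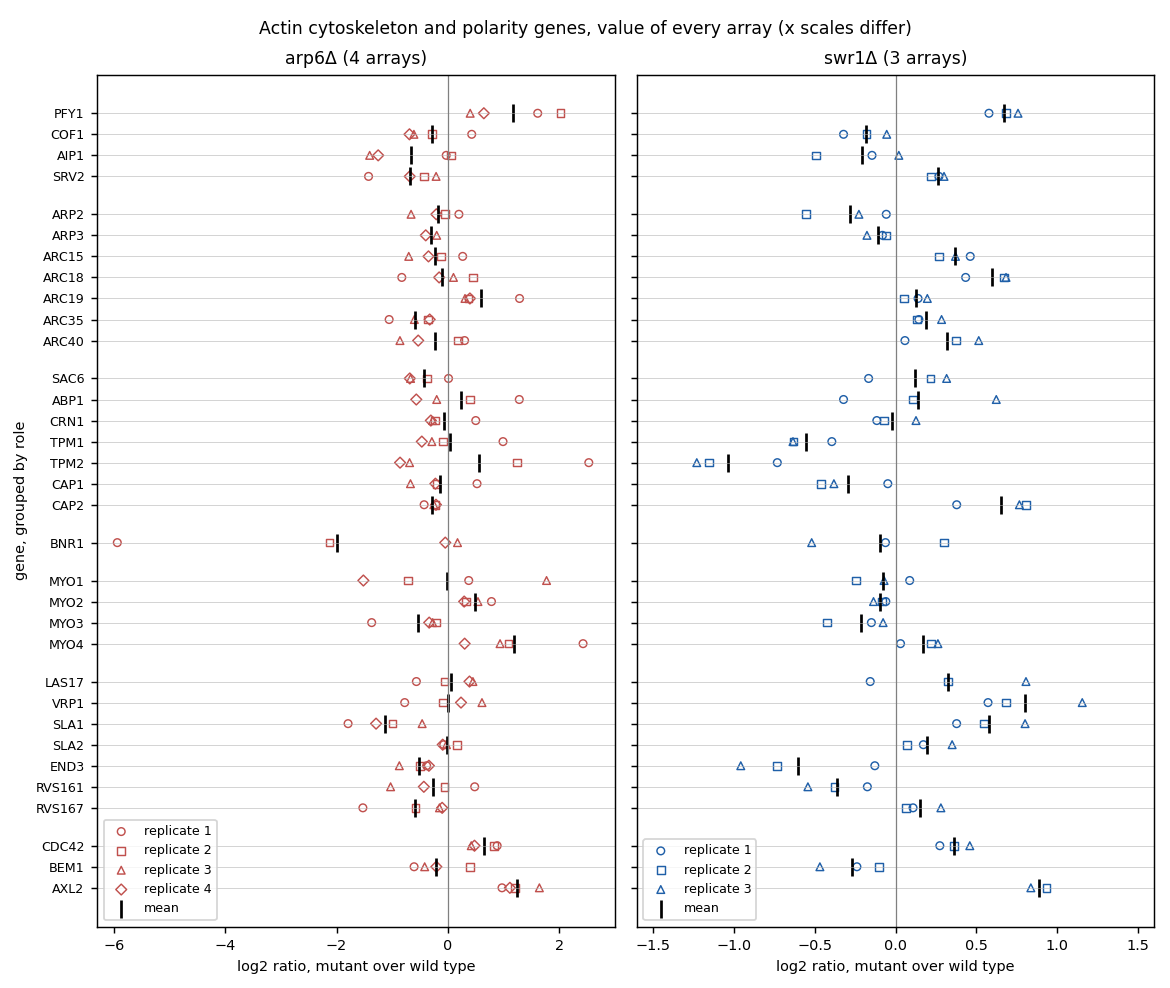
Log2 ratio of mutant over wild type on the x axis for the 33 tested genes, grouped by role, with 1 symbol an array and a bar for the mean, for arp6Δ on the left and swr1Δ on the right (the x scales differ). The arp6Δ arrays spread more widely, with a median SD over the genes of 0.519, against 0.173 in swr1Δ.

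The median SD of these genes between arrays was like that of all features, while in swr1Δ more of them kept 1 sign, a gap that was not tested. Their median SD was 0.519 in arp6Δ and 0.173 in swr1Δ, against 0.527 and 0.196 over all features. All 4 arp6Δ arrays lay on the same side of 0 for 13 of 32 genes (40.6%), against 40.4% of all features. All 3 swr1Δ arrays did so for 25 of 32 genes (78.1%), 14 above and 11 below 0, against 62.2% of all features. The means of the 2 arp6Δ pairs had opposite signs for 16 of 32 genes, and differed by a median of 0.512.

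ACT1, the single gene for actin, gave no usable level. Of 49 probes that carry its name, 12 had a value on any array, all on arp6Δ replicates 1 and 2, where they ran from -4.29 to 2.29 on replicate 1 and from -1.97 to 0.73 on replicate 2. Only 1 of them also had values on replicates 3 and 4 (0.55 and 0.45), and none had a value in swr1Δ. Values as wide apart as these for 1 transcript do not give its level. ACT1 was not tested because it had no value in swr1Δ.

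Among the genes of actin turnover, PFY1 (YOR122C), which encodes profilin, an actin monomer-binding protein that feeds formins, was higher in swr1Δ. It read 1.61, 2.03, 0.40 and 0.65 in arp6Δ and 0.58, 0.68 and 0.76 in swr1Δ. All 7 arrays lay above 0, and the first arp6Δ pair stood above the other arrays. Its mean was 1.17 ± 0.77 in arp6Δ (SD, n = 4, adjusted p = 0.0791) and 0.67 ± 0.09 in swr1Δ (SD, n = 3, adjusted p = 0.0225 by limma), which is 1.59-fold. With arp6Δ replicates 3 and 4 alone PFY1 averaged 0.52 (adjusted p = 0.037 by limma).

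The other genes of this role did not pass in either mutant. COF1, encoding cofilin, which severs filaments, averaged -0.29 in arp6Δ and -0.19 in swr1Δ. AIP1, a cofilin partner, averaged -0.66 in arp6Δ, made up of 0.01 on replicates 1 and 2 and -1.33 on replicates 3 and 4, and -0.21 in swr1Δ. SRV2, the cyclase-associated protein that recycles monomers, averaged -0.69 in arp6Δ and 0.26 in swr1Δ. With replicates 3 and 4 alone COF1 and AIP1 passed, with an adjusted p of 0.0119 and 1.01e-04 by limma.

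The Arp2/3 complex has 7 subunits, all tested. In arp6Δ 1 lay above 0 and 6 below, with a median of -0.23. None passed the threshold, against 5.36% of all features, and 1 had an unadjusted p under 0.05, against 29.4% (limma). In swr1Δ 5 lay above 0 and 2 below, with a median of 0.19. Of the 7, 1 passed the threshold, against 22.2% of all features. The subunit ARC18 (YLR370C) read -0.83, 0.45, 0.10 and -0.16 in arp6Δ and 0.43, 0.67 and 0.68 in swr1Δ. The arp6Δ values straddled 0 and overlapped those of swr1Δ, which were all positive. Its mean was -0.11 ± 0.54 in arp6Δ (SD, n = 4) and 0.59 ± 0.14 in swr1Δ (SD, n = 3, adjusted p = 0.0227 by limma), a 1.51-fold rise. With arp6Δ replicates 3 and 4 alone it averaged -0.03 (adjusted p = 0.919 by limma).

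ARC19 (YKL013C), another subunit, had the largest absolute mean of the complex in arp6Δ. It read 1.29, 0.37, 0.31 and 0.40 in arp6Δ and 0.14, 0.05 and 0.20 in swr1Δ. Replicate 1 of arp6Δ stood apart, and every arp6Δ value was above every swr1Δ value. The mean of 0.59 in arp6Δ did not pass (adjusted p = 0.173 by limma), nor did the mean of 0.35 on replicates 3 and 4 alone (adjusted p = 0.139) or the mean of 0.13 in swr1Δ. Of the rest, ARC35 averaged -0.59 in arp6Δ and 0.19 in swr1Δ, ARC15 -0.23 and 0.37, and ARC40 -0.23 and 0.32 in the same order. With arp6Δ replicates 3 and 4 alone, ARC40 (-0.70, adjusted p = 0.0095) and ARC15 (-0.53, adjusted p = 0.0392 by limma) passed as lower. The actin-related subunits ARP2 and ARP3, which seed the new filament, averaged -0.18 and -0.30 in arp6Δ and -0.28 and -0.11 in swr1Δ, where ARP3 had no value on arp6Δ replicates 1 and 2.

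Among filament-binding and capping genes, both tropomyosin genes were lower in swr1Δ and the capping protein subunit CAP2 was higher. TPM2 (YIL138C), the minor tropomyosin, read 2.53, 1.24, -0.69 and -0.86 in arp6Δ and -0.73, -1.15 and -1.23 in swr1Δ. All swr1Δ values were below 0, while the arp6Δ pairs lay on opposite sides of it. In swr1Δ the mean was -1.04 ± 0.27 (SD, n = 3, adjusted p = 0.0214 by limma), so that TPM2 stood at 0.487 of wild type, the lowest of the 33 genes. In arp6Δ the mean of 0.56 ± 1.63 (SD, n = 4) did not pass, and with replicates 3 and 4 alone it was -0.77 (adjusted p = 0.0046 by limma), opposite in sign.

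TPM1 (YNL079C), the major tropomyosin of the cables, read 0.99, -0.09, -0.29 and -0.47 in arp6Δ and -0.39, -0.63 and -0.63 in swr1Δ. The swr1Δ values were all negative and overlapped the lowest of arp6Δ. Its mean was 0.04 in arp6Δ (adjusted p = 0.945) and -0.55 ± 0.14 in swr1Δ (SD, n = 3, adjusted p = 0.0254 by limma). On arp6Δ replicates 3 and 4 alone it averaged -0.38 (adjusted p = 0.116 by limma). Both tropomyosin proteins coat cable filaments and recruit the type V myosins.

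CAP2 (YIL034C), the beta subunit of the protein that caps barbed ends, read -0.43, -0.22, -0.25 and -0.21 in arp6Δ and 0.38, 0.81 and 0.77 in swr1Δ. All arp6Δ arrays were below 0, all swr1Δ arrays above it, and the mutants did not overlap. The mean was -0.28 ± 0.10 in arp6Δ (SD, n = 4, adjusted p = 0.369) and 0.65 ± 0.24 in swr1Δ (SD, n = 3, adjusted p = 0.0236 by limma), with -0.23 on arp6Δ replicates 3 and 4 alone (adjusted p = 0.324). CAP1, the alpha subunit of the same dimer, averaged -0.14 in arp6Δ and -0.30 in swr1Δ and passed in neither. The patch proteins SAC6 (fimbrin, which bundles filaments), ABP1 and CRN1 (coronin) averaged -0.43, 0.23 and -0.08 in arp6Δ and 0.12, 0.14 and -0.02 in swr1Δ. SAC6 passed as lower with arp6Δ replicates 3 and 4 alone (-0.68, adjusted p = 0.0094 by limma).

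Of the formins, which nucleate cables, BNR1 (YIL159W) was measured. It read -5.94, -2.12, 0.17 and -0.05 in arp6Δ and -0.06, 0.30 and -0.52 in swr1Δ. The low values were those of arp6Δ replicates 1 and 2, and the other 5 arrays lay around 0. The arp6Δ mean of -1.98 ± 2.83 (SD, n = 4) thus did not pass (adjusted p = 0.229 by limma), and replicates 3 and 4 averaged 0.06.

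Of the 4 myosin genes tested none passed in either mutant, against 5.36% of all features in arp6Δ and 22.2% in swr1Δ. At an unadjusted limma p under 0.05 there was 1 gene in arp6Δ and 0 in swr1Δ, against 29.4% and 41.6% of all features. MYO4 (YAL029C), the type V myosin that carries mRNA into the bud, had the largest mean in arp6Δ, with 2.43, 1.09, 0.94 and 0.30 in arp6Δ and 0.03, 0.22 and 0.26 in swr1Δ. Every arp6Δ value was above every swr1Δ value. Its mean was 1.19 ± 0.89 in arp6Δ (SD, n = 4, adjusted p = 0.0921) and 0.17 in swr1Δ, and replicates 3 and 4 averaged 0.62 (adjusted p = 0.0258 by limma).

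MYO3 (YKL129C), a type I myosin of the patches, had the largest absolute mean of the myosins in swr1Δ, at -0.22. It read -1.37, -0.20, -0.27 and -0.34 in arp6Δ and -0.15, -0.42 and -0.08 in swr1Δ. All 7 arrays were below 0 and the mutants overlapped. On arp6Δ replicates 3 and 4 alone MYO3 averaged -0.30 (adjusted p = 0.197 by limma). MYO2, the type V myosin that carries vesicles, averaged 0.48 in arp6Δ and -0.09 in swr1Δ. MYO1, the type II myosin of the contractile ring, averaged -0.02 in arp6Δ with an SD of 1.43, and -0.08 in swr1Δ.

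In the endocytic patch, SLA1 (YBL007C), an adaptor that binds cargo and the Arp2/3 activator, differed between the mutants. It read -1.79, -0.99, -0.46 and -1.29 in arp6Δ and 0.38, 0.55 and 0.80 in swr1Δ. Every arp6Δ value was negative and every swr1Δ value positive. The mean was -1.14 ± 0.56 in arp6Δ (SD, n = 4, adjusted p = 0.0588), just short of the threshold, and 0.58 ± 0.21 in swr1Δ (SD, n = 3, adjusted p = 0.0278 by limma). With arp6Δ replicates 3 and 4 alone SLA1 averaged -0.88 (adjusted p = 0.0055 by limma).

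VRP1 (YLR337C), yeast verprolin, a partner of the Arp2/3 activator Las17, was higher in swr1Δ. It read -0.78, -0.09, 0.61 and 0.24 in arp6Δ and 0.57, 0.68 and 1.15 in swr1Δ. The arp6Δ pairs lay on either side of 0, with a mean of 0.00, and the swr1Δ mean was 0.80 ± 0.31 (SD, n = 3, adjusted p = 0.0225 by limma), or 1.75-fold. Replicates 3 and 4 of arp6Δ alone averaged 0.42 (adjusted p = 0.0887 by limma). LAS17 itself averaged 0.05 in arp6Δ and 0.32 in swr1Δ and did not pass.

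END3 (YNL084C), which acts with the coat protein Sla1 in early endocytosis, was lower in swr1Δ. It read -0.38, -0.50, -0.87 and -0.34 in arp6Δ and -0.13, -0.73 and -0.96 in swr1Δ. All 7 arrays were below 0 and the mutants overlapped. The mean was -0.52 ± 0.24 in arp6Δ (SD, n = 4, adjusted p = 0.153) and -0.61 ± 0.43 in swr1Δ (SD, n = 3, adjusted p = 0.0475 by limma). With arp6Δ replicates 3 and 4 alone END3 averaged -0.61 and passed (adjusted p = 0.0248 by limma). The coat protein gene SLA2 averaged -0.01 in arp6Δ and 0.20 in swr1Δ, and the amphiphysin genes RVS161 and RVS167, whose products bend the membrane, averaged -0.26 and -0.59 in arp6Δ and -0.36 and 0.15 in swr1Δ. RVS161 passed as lower with arp6Δ replicates 3 and 4 alone (-0.73, adjusted p = 0.0103 by limma).

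AXL2 (YIL140W), a membrane protein that marks the axial bud site, was the only 1 of the 33 genes to pass in arp6Δ, and it passed in swr1Δ too. It read 0.97, 1.21, 1.64 and 1.11 in arp6Δ and 0.93 and 0.84 on swr1Δ replicates 2 and 3, with no value on replicate 1. All 6 values were above 0.8 and those of arp6Δ were higher. The mean was 1.23 ± 0.29 in arp6Δ (SD, n = 4, adjusted p = 0.0371), or 2.35-fold, and 0.88 ± 0.07 in swr1Δ (SD, n = 2, adjusted p = 0.0225 by limma), or 1.85-fold. The call in arp6Δ was lost without any 1 of its arrays (adjusted p = 0.0519 to 0.138 by limma), at log2 means of 1.10 to 1.32, while replicates 3 and 4 alone averaged 1.38 (adjusted p = 1.32e-04).

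CDC42 (YLR229C), the GTPase at the head of polarity, read 0.89, 0.83, 0.42 and 0.48 in arp6Δ and 0.27, 0.36 and 0.46 in swr1Δ. All 7 arrays were above 0 and the mutants overlapped. It did not pass, at 0.65 ± 0.24 in arp6Δ (SD, n = 4, adjusted p = 0.1003) and 0.36 ± 0.09 in swr1Δ (SD, n = 3, adjusted p = 0.0554 by limma), nor with arp6Δ replicates 3 and 4 alone (0.45, adjusted p = 0.0637). BEM1, the scaffold that holds Cdc42 and its activator, averaged -0.21 in arp6Δ and -0.27 in swr1Δ.

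**Figure D2:**
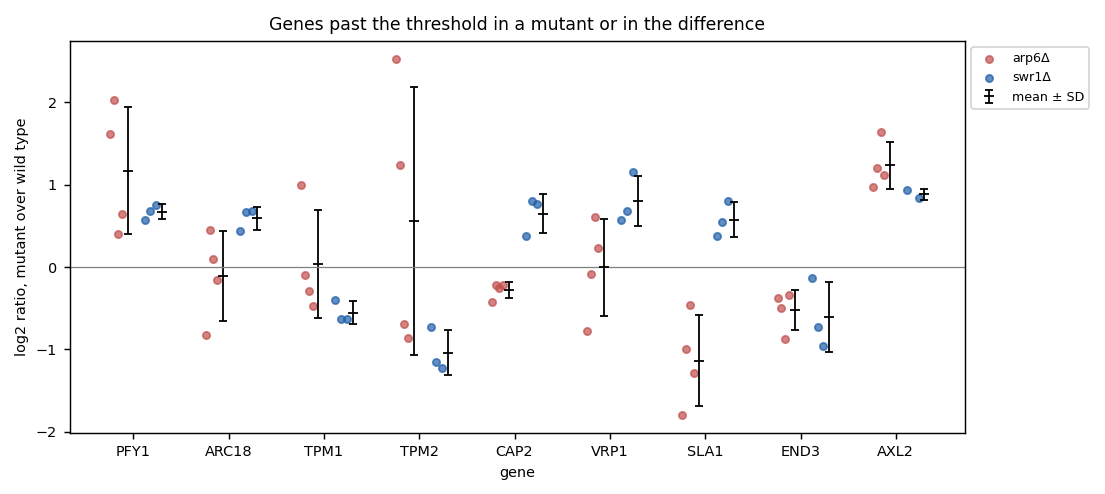
Log2 ratio of mutant over wild type on the y axis for each gene past an adjusted p of 0.05 in a mutant or in the difference, with 1 point an array and the mean ± SD beside it, arp6Δ to the left of swr1Δ. The points of SLA1 and CAP2 lie below 0 in arp6Δ and above 0 in swr1Δ, and those of AXL2 lie above 0 in both.

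The difference between the mutants was tested directly, which removes a dye effect common to all arrays. It passed for 2 of 33 genes (6.06%), against 7.03% of all features, and both were lower in arp6Δ, while 3.13% of all features were higher and 3.9% lower. At an unadjusted p under 0.05 there were 5 of 33, against 28.9% of all features (limma). SLA1 differed by -1.71 ± 0.33 (SE, adjusted p = 0.0335) and CAP2 by -0.93 ± 0.22 (SE, adjusted p = 0.0451 by limma). SRV2, ARC35 and RVS167, also below 0 on all arp6Δ arrays and above 0 on all swr1Δ arrays, differed by -0.95, -0.77 and -0.74 and did not pass (adjusted p = 0.0939, 0.0908 and 0.217 by limma). The arrays of the mutants did not overlap for 9 of the 31 genes with 7 values (29%), against 32.2% of all features. Without arp6Δ replicate 4, or without any 1 swr1Δ array, neither passed (adjusted p = 0.079 to 0.19 for SLA1 and 0.0823 to 0.232 for CAP2), and in those fits 3 to 5 features passed in all, against 413. CAP2 was also lost without arp6Δ replicate 3 (adjusted p = 0.0717, limma). With any 1 array left out the differences ran from -1.93 to -1.49 for SLA1 and from -1.06 to -0.85 for CAP2. When arp6Δ was represented by replicates 3 and 4 alone, 9 of 33 genes (27.3%) passed, all lower in arp6Δ, and 2294 features in all (limma). These 9 were AIP1, SRV2, ARC15, ARC18, ARC35, ARC40, SAC6, CAP2 and SLA1.

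Counts in swr1Δ moved with the arrays used, for these genes much as for all features. Without replicate 2, 2 of the 9 genes passed (VRP1 and TPM2), and 5.03% of all features. Without replicate 3, 4 of them passed (PFY1, VRP1, AXL2 and TPM2), and 7.08% of all features, where AXL2 rests on a single value with a spread borrowed from other features. Without replicate 1 all 9 passed among 17 genes, and 53.7% of all features. TPM2 and VRP1 passed in each of these fits, at -1.19 to -0.94 and 0.63 to 0.92. In 1 fit of all 7 arrays with a shared spread, 8 of the 33 genes (24.2%) passed in arp6Δ, against 26.8% of all features, and 0 passed in swr1Δ, as did 0% of all features (5 genes had an unadjusted p under 0.05, limma).

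**Figure D3:**
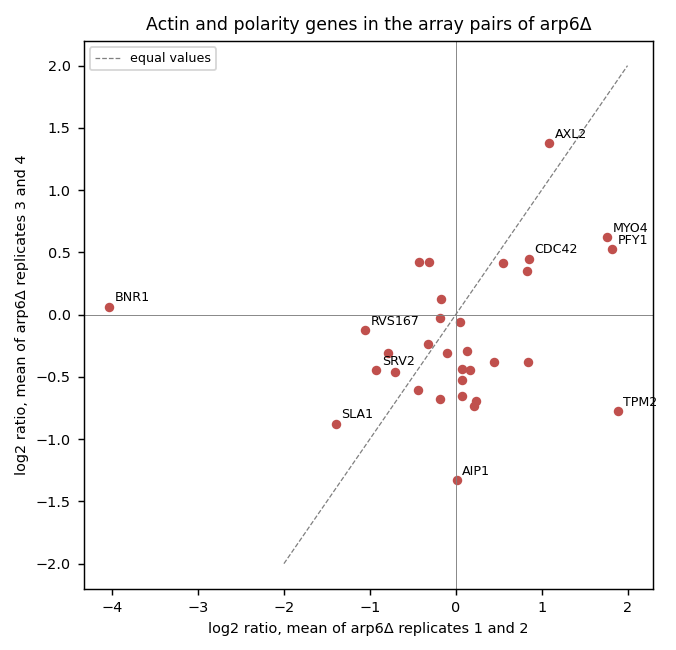
Mean log2 ratio of each gene on arp6Δ replicates 1 and 2 (x axis) against that on replicates 3 and 4 (y axis), 1 point a gene, for the 32 genes with 4 values, with a dashed line at equal values. BNR1 and TPM2 lie far from the line, with gaps of 4.09 and 2.66, while AXL2, CDC42 and SLA1 have the same sign in both pairs.

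Other genes of the pathway were taken from lists chosen with earlier results known. The 7 lists had 2 to 35 tested genes each. In arp6Δ the only 1 of them to pass was ARP6, the deleted gene, while 5.36% of all features passed. With replicates 3 and 4 alone more of them passed, in both directions, as did 43.4% of all features. Among the lower were RHO4 (-1.29, adjusted p = 1.53e-04) and ROM1 (-1.25, adjusted p = 1.61e-04 by limma). Among the higher were CLA4 (1.14, adjusted p = 0.0012) and GIM3 (1.06, adjusted p = 0.0009 by limma). Counts by list are not given for that fit. In swr1Δ the chaperones that fold actin had 3 of 14 genes above 0 and 11 below, with a median of -0.21. Against 11.2% of all features called higher and 10.9% lower, 0 of the 14 were called higher and 3 lower. These were GIM4 (-0.94, adjusted p = 0.0214) and YKE2 (-1.03, adjusted p = 0.0225), prefoldin subunits that hand actin to the chaperonin CCT, and PLP2 (-0.53, adjusted p = 0.045 by limma), a CCT cofactor. GIM4 and YKE2 averaged 0.55 and 0.43 in arp6Δ (0.25 and 0.33 on replicates 3 and 4 alone), and their difference between the mutants passed too (adjusted p = 0.0277 and 0.0448 by limma). They were the 2 of 14 called higher in arp6Δ in the difference, with 0 lower, against 3.13% and 3.9% of all features.

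Genes of cable transport and the exocyst, the complex that tethers vesicles to the bud membrane, had 4 of 16 lower in swr1Δ and 0 higher, with a median of -0.29. They were the exocyst subunits SEC10 (-0.72), SEC6 (-0.64) and EXO70 (-0.57) and the kinesin-related SMY1 (-0.44). Septins and cytokinesis genes had 3 of 16 lower and 0 higher, with a median of -0.14: BNI5 (-0.78), which acts at the septin ring, and the septins SHS1 (-0.58) and CDC3 (-0.61). CDC3 averaged 0.85 in arp6Δ (0.56 on replicates 3 and 4 alone) and differed between the mutants by 1.46 (adjusted p = 0.0412 by limma). It was the only 1 of the 16 septin and cytokinesis genes to pass in the difference, against 7.03% of all features. The shares called lower in swr1Δ compare with 10.9% of all features.

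The 35 tested genes of polarity and bud site choice moved both ways in swr1Δ, with 3 higher and 5 lower and a median of -0.02. By adjusted p the first were RAX1 (0.60), a bipolar landmark, MSB4 (-0.49), a Rab GTPase-activating protein, ROM2 (1.52, with no value on replicate 2), an exchange factor for Rho1, and SPH1 (0.61), a polarisome-related protein. In the difference 1 of the 35 was called higher in arp6Δ and 1 lower, against 3.13% and 3.9% of all features. RSR1, the GTPase of bud site choice, was higher in arp6Δ by 1.21, and BUD9, a bipolar landmark, differed by -1.32 (adjusted p = 0.0412 for each by limma). Other patch and endocytosis genes had 2 of 29 higher in swr1Δ, AIM3 (0.54) and SYP1 (0.51), and 0 lower. Over all features, 11.2% were called higher and 10.9% lower in swr1Δ. Neither of the 2 tubulin genes tested passed in any of the 3 comparisons. At an unadjusted p under 0.05 there were 0, against 28.9% to 41.6% of all features (limma).

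**Figure D4:**
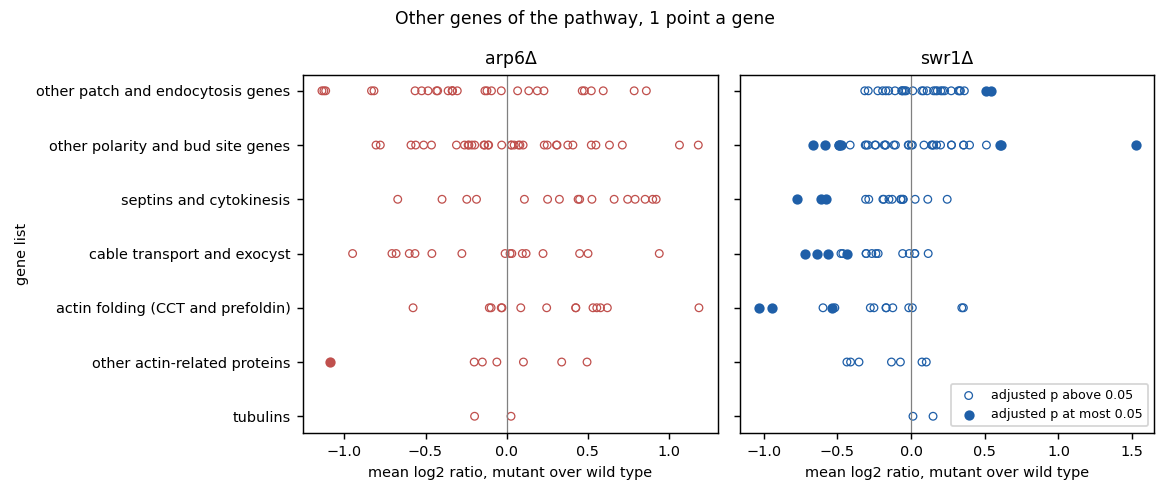
Mean log2 ratio of mutant over wild type on the x axis for the other genes of the pathway, by list, 1 point a gene, for arp6Δ on the left and swr1Δ on the right (the x scales differ), filled where the adjusted p is at most 0.05. The filled points of the chaperone, exocyst and septin lists lie below 0 in swr1Δ, and ARP6 is the 1 filled point in arp6Δ.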

How the data were processed

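Expression was measured on 2-colour arrays of 7 samples. The authors deposited log2 ratios of mutant (Cy5) over wild type (Cy3), normalised and centred near 0 by steps not given in the sources used here, with no dye swap, so that a fixed dye effect stays in each ratio. Of 6912 probes, 5446 had 1 gene symbol and 1466 none. Symbols were updated through Entrez numbers, probes of a gene were averaged, and features with values on at least 2 arrays of each mutant were tested (5344 genes and 535 unnamed probes). limma 3.58.1 in R 4.3.3 tested the arrays of each mutant against 0, which leaves out the spread of wild type, and the difference on all arrays, 2-sided, with Benjamini-Hochberg adjustment at 0.05. The test was checked on simulated data with noise drawn independently for each array. That check does not cover the pairs among the arp6Δ arrays or displaced values. Replicates were independent cultures per the study's methods. In bulk cultures, fewer cells with a transcript and less of it per cell cannot be told apart. Arrays give no read depth, and their number limits the precision.

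Members and lists were chosen with earlier results of these data known. Values of each array are given for CDC42, the deleted genes, members past the threshold and the largest absolute mean of each role. Set beside the values the study tabulated, parts of arp6Δ replicates 1 and 2, and in places of all 4 arp6Δ arrays, seemed to stand at a neighbouring gene. To locate such stretches from the deposited values, 13 settings in 3 forms were compared, scored on that table. None was reliable, so no value was moved. Alternatives were the fit, test, scaling, filter, array weights, replicate block and arrays left out.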

Additional observations from a re-analysis of the deposited data

Results flagged for a closer look

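SLA1 differed between the mutants by a log2 value of -1.71 (arp6Δ minus swr1Δ) and CAP2 by -0.93, both past the threshold of the limma test of the difference, with 4 of 4 arp6Δ arrays below 0 and 3 of 3 swr1Δ arrays above 0. In 3 genes a single arp6Δ array, replicate 1 each time, stood far from the other arrays of the group. The gap to the nearest array, as a share of the range, was 0.910 for ARC19 (1.29 against 0.31 to 0.40), 0.912 for CRN1 (0.50 against -0.31 to -0.23) and 0.886 for MYO3 (-1.37 against -0.34 to -0.20). Among 32 genes with 4 values, chance flags about 1 in 20.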

How the results depend on the processing

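The swr1Δ counts of 1303 features and 9 genes stayed within 1.5 times under scaling, quantile normalisation, the filter for 7 values and the methods' t-test without adjustment. With all 7 arrays in 1 fit 0 features and 0 genes passed in swr1Δ (790 and 5 at an unadjusted p under 0.05), and 1577 and 8 in arp6Δ. The methods' t-test after Benjamini-Hochberg called 0 features and 0 genes in either mutant, and without adjustment 1291 and 7 in arp6Δ and 1225 and 11 in swr1Δ. In arp6Δ, against 315 features and 1 gene, scaling gave 817 and 3, quantile normalisation 877 and 4, averaged pairs 0 and 0 (829 and 4 unadjusted), replicates 3 and 4 alone 2549 and 12, replicates 1 and 2 alone 454 and 3, and the filter for 7 values 303 and 0. The filter for 7 values left 31 genes and removed AXL2, which has no value on swr1Δ replicate 1, so its calls were not tested there. In swr1Δ that filter kept the other 8 calls and added ARC15. TPM2 reversed with arp6Δ replicates 3 and 4 alone, to -0.77, and the cause was not tested. For the difference, against 413 features and 2 genes, array weights gave 3018 and 11, scaling 1142 and 7, quantile normalisation 1213 and 8, averaged pairs 357 and 1, replicates 1 and 2 of arp6Δ 1305 and 8, and replicates 3 and 4 2294 and 9. Leaving out 1 array gave 0 to 70 features and 0 genes in arp6Δ (4 to 9 genes unadjusted), 296 to 3159 features and 2 to 17 genes in swr1Δ, and 3 to 776 features and 0 to 2 genes in the difference. The replicate block over replicates 1 to 3 called 2 features and 0 genes (1416 and 7 unadjusted), and the same 6 arrays without the block, added after seeing the data, 5 and 0 (1584 and 8). Deviations from the mutant means correlated at 0.017, 0.046 and -0.049 between same-numbered arrays, and at -0.175 to 0.175 between differently numbered ones. With 3 or 4 arrays a mutant, this check cannot exclude that the numbers pair the arrays. Moving possibly displaced arp6Δ values back was not run, since such stretches could not be located reliably. The small number of arrays limits every count.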

Other observations

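MYO1, the myosin of the contractile ring, read 1.77 on arp6Δ replicate 3 and -1.52 on replicate 4, arrays that correlated at r = 0.837 across features, and 0.38 and -0.72 on replicates 1 and 2. In systematic-name order, the mean of arp6Δ replicates 1 and 2 correlated with that of replicates 3 and 4 at r = 0.367 at the same gene and at 0.112 and 0.069 at the genes on either side. For swr1Δ replicates 2 and 3 these were 0.846, 0.117 and 0.127. The correlations are across genes, which are not independent replicates. No hypothesis was tested.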
